A study of Caenorhabditis elegans with 6 samples.

Results

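The peroxisomal Lon protease and 5 other enzymes assigned to the peroxisome matrix or to families with a matrix member were followed in whole adult Caenorhabditis elegans. The genes were Y75B8A.4 (now lonp-2), idh-1, daao-1, mlcd-1, gstk-1 and gstk-2. They were found by symbol in tables of FPKM, fragment counts divided by transcript length and by the size of the library. A row was used only where its gene and locus were the same in all 7 tables. Of the 6 genes, 5 had a row, gstk-2 had 2 rows, and together these were 6 of the 15796 loci listed. No row carried the name mlcd-1, the gene for malonyl-CoA decarboxylase, and that gene is not analysed here.

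Peroxisomes make no protein of their own. Enzymes of the matrix are folded in the cytosol and carried across the membrane by the receptor PRX-5 (PEX5 in mammals), which reads a short targeting signal at the C-terminus of its cargo. Inside, oxidases release hydrogen peroxide while they break down fatty acids and D-amino acids, and catalase, NADPH and thiol enzymes deal with the peroxide. The matrix Lon protease is an ATP-dependent ring that unfolds and degrades misfolded or damaged matrix proteins.

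All worms were Bristol N2 with a wild-type genotype, and whole bodies were taken. L4 larvae were given bacteria for RNAi by feeding on IPTG plates, and their offspring were collected as adults. The control group received tag-208(RNAi), a gene now called sorb-1, and the other group prx-5(RNAi), with 3 biological replicates each. Both groups therefore carried an RNAi treatment, and the labels do not say how the cultures of a group were separated.

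The RNA of prx-5 went against its label. The level of prx-5 was 4.48, 4.73 and 3.50 FPKM in control replicates 1, 2 and 3, and 14.9, 21.3 and 23.5 FPKM in the libraries labelled prx-5 RNAi. That is a rise of 1.98 ± 0.22 (SE) on the log2 scale, with an adjusted p of 0.00866 by limma. The RNA of sorb-1 stood at 11.5, 12.9 and 6.96 FPKM in control and at 13.6, 14.8 and 25.6 FPKM in the other group, with an adjusted p of 0.232. The RNA levels therefore do not show a knockdown of prx-5. Each sorb-1 value in control lay below each value of the other group, the direction of its label, but the adjusted p was not under 0.05. Each direction given here is that of the libraries labelled prx-5 RNAi against the libraries labelled tag-208 RNAi.

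Read totals are unknown, and depths estimated from the low FPKM values, with the first control library set to 1, lay between 0.768 and 1.27. Over all loci, a library of each group stood apart. On the first principal component, with 52.1% of the variance, control replicate 2 was at -15.4 with the other controls at -51.2 and -54.8, and prx-5 replicate 1 was at 7.39 with its group at 54.2 and 59.9. The second component, with 19.8%, put these same libraries at -55.7 and 37.6. Of 13347 tested loci, 1160 had an adjusted p under 0.05 and are here termed called. Of these, 1000 were higher in the prx-5-labelled libraries and 160 were lower. The balance moved with the scaling: median-ratio scaling gave 512 higher and 186 lower, the authors' constants per library 522 and 192, and quantile normalization 531 and 239. The number of calls also depended on single libraries. It was 300 without control replicate 1, 78 without control replicate 3, 1834 without prx-5 replicate 1, 97 without prx-5 replicate 2 and 81 without prx-5 replicate 3.

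Of the 5 measured genes, 2 rose in the prx-5-labelled libraries, and none fell. Y75B8A.4, the matrix Lon protease, rose 11.5-fold, and daao-1, a D-amino-acid oxidase, rose 3.64-fold. For comparison, 7.49% of all tested loci were called higher and 1.20% lower. The kappa-class glutathione transferase gstk-1 and the isocitrate dehydrogenase idh-1 were higher in every prx-5-labelled library than in every control library, with folds of 1.89 and 1.29, but missed the threshold. Values of the larger gstk-2 row overlapped between the groups. In 4 of the 5 genes, with gstk-2 counted by its larger row, all prx-5-labelled values lay above all control values. That held for 21.2% of tested loci. In the smaller gstk-2 row all prx-5-labelled values also lay above all control values. The median log2 fold change of the 5 genes was 0.91, against 0.04 for all tested loci. Only 1 of the 5 genes, Y75B8A.4, was called when control replicate 3 was left out, and the same held without replicate 2 or replicate 3 of the prx-5-labelled group.

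**Figure D1:**
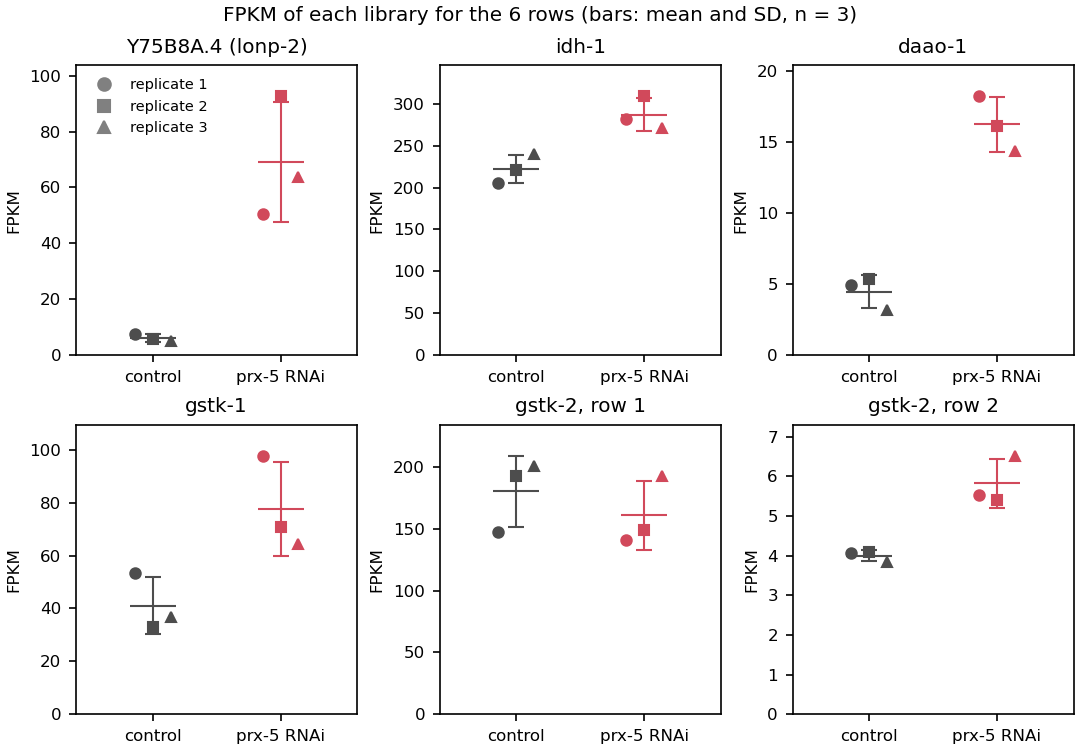
FPKM of each library (vertical axes, from 0) for the 6 rows in control and prx-5 RNAi libraries, with symbols for replicates 1, 2 and 3 and bars for the mean and SD (n = 3). The groups lie apart for Y75B8A.4, idh-1, daao-1, gstk-1 and the second gstk-2 row, and overlap for the first gstk-2 row.

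Y75B8A.4 (WBGene00013541) lies on the plus strand of chromosome III at 12107774 to 12113468 in the WBcel235 annotation. It has 11 exons over 5695 bp, and its row covered 99.9% of the gene. Its level was 7.53, 5.65 and 4.81 FPKM in control replicates 1, 2 and 3. It was 50.7, 92.7 and 63.8 FPKM in prx-5 replicates 1, 2 and 3. The lowest prx-5-labelled library was several times the highest control library, and the spread among libraries was moderate in both groups.

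The group means of Y75B8A.4 were 6.00 ± 1.39 FPKM and 69.0 ± 21.5 FPKM (SD, n = 3), with coefficients of variation of 23.2% and 31.1%. The difference was 3.30 ± 0.26 (SE) on the log2(FPKM + 1) scale, with a 95% interval of 2.68 to 3.91 and an adjusted p of 0.00415. Among all tested loci, the gene moved from percentile 40.4 of the control mean to percentile 83.5 of the prx-5-labelled mean. The protease gene thus went from a level below the median locus to one in the upper part of the range. The authors' deposited table gave it 6.29 and 66.3 FPKM and a q-value of 0.00101. Leaving out 1 library gave log2 differences from 3.07 to 3.49, and the gene was called each time.

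Worms, like mammals, have a separate Lon protease in mitochondria, encoded by lonp-1. Its level was 54.9, 38.1 and 52.8 FPKM in control and 53.0, 49.1 and 40.6 FPKM in prx-5-labelled libraries. These values overlapped, with a difference of -0.02 ± 0.19 (SE) and an adjusted p of 0.964. The ratio of Y75B8A.4 to lonp-1 within a library was 0.137, 0.148 and 0.0912 in control, and 0.955, 1.89 and 1.57 in prx-5-labelled libraries. In control the peroxisomal gene was thus the minor Lon transcript per length, and in 2 of the 3 prx-5-labelled libraries it was the major one. The ratios differed by 3.53 on the log2 scale. The exact permutation test, two-sided, gave p = 0.1, which is the smallest that 3 libraries against 3 allow, and 0.2 after Benjamini-Hochberg adjustment over the 4 ratios computed.

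The genes of 3 other mitochondrial proteases gave no call. They were clpp-1, which encodes the proteolytic subunit of the ClpP complex, spg-7, a subunit of the membrane-bound m-AAA protease, and ymel-1, the i-AAA protease. Their log2 differences were 0.23 ± 0.14, -0.08 ± 0.17 and 0.23 ± 0.15 (SE). The adjusted p-values were 0.405, 0.811 and 0.413.

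The D-amino-acid oxidase daao-1 (WBGene00022076) removes the amino group of neutral and basic D-amino acids and releases hydrogen peroxide. The gene lies on the plus strand of chromosome IV at 2614194 to 2617147, with 6 exons over 2954 bp, of which 97.7% lay in its row. Its level was 4.90, 5.33 and 3.14 FPKM in control and 18.2, 16.1 and 14.4 FPKM in prx-5-labelled replicates 1, 2 and 3. The groups lay far apart, and the prx-5-labelled libraries differed little among themselves, with a coefficient of variation of 11.9% against 26.0% in control.

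Mean levels of daao-1 were 4.46 ± 1.16 and 16.2 ± 1.93 FPKM (SD, n = 3). The log2 difference was 1.68 ± 0.22 (SE), with a 95% interval of 1.16 to 2.19 and an adjusted p of 0.0117. In the authors' deposited table its log2 fold change was 1.72 and its q-value 0.00101. The call of daao-1 rested on single libraries, although its size did not. The adjusted p was 0.0501 without control replicate 3, 0.0543 without prx-5 replicate 2 and 0.0550 without prx-5 replicate 3, and the 6 leave-out differences ran from 1.49 to 1.80.

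D-aspartate oxidases take acidic D-amino acids, and the worm has 3 of them. The first, ddo-1, rose by 1.96 ± 0.37 (SE) on the log2 scale with an adjusted p of 0.0252, from 4.33, 8.80 and 5.59 FPKM to 15.8, 39.4 and 29.0 FPKM. The others, ddo-2 and ddo-3, differed by 0.19 ± 0.16 and 0.16 ± 0.16, with adjusted p-values of 0.529 and 0.614. So 2 of the 4 D-amino-acid oxidase genes of the worm named here were called higher with all libraries. The most abundant of the family was ddo-3 in both groups. The ratio of daao-1 to ddo-3 was 0.0271, 0.0359 and 0.0155 in control and 0.0901, 0.0840 and 0.0730 in prx-5-labelled libraries, a log2 difference of 1.73 with an exact p of 0.1, again the smallest possible.

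The kappa-class glutathione transferases resemble bacterial disulfide-bond enzymes more than the cytosolic transferases, and in C. elegans GSTK-1 has been placed in peroxisomes and GSTK-2 in mitochondria. The gene gstk-1 (WBGene00014251) is the shortest of the set, with 3 exons over 1015 bp on the plus strand of chromosome II at 9656705 to 9657719, and 96.7% of it lay in its row. Its level was 53.3, 33.0 and 36.8 FPKM in control and 97.9, 70.8 and 64.2 FPKM in prx-5-labelled replicates 1, 2 and 3. Replicate 1 was the highest library of both groups, and the groups did not overlap.

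For gstk-1 the means were 41.0 ± 10.8 and 77.6 ± 17.8 FPKM (SD, n = 3), and the log2 difference was 0.91 ± 0.24 (SE). Its 95% interval of 0.35 to 1.47 lay above 0, while the adjusted p was 0.0641. The call of gstk-1 depended on the method. The authors' deposited table listed it as significant at a log2 fold change of 0.78 (q-value 0.0182). The adjusted p was 0.0375 after quantile normalization and 0.0303 with the replicate number as a block. As significant and higher, the authors' deposited table listed 3 of the 5 genes, which were Y75B8A.4, daao-1 and gstk-1, against 9.52% of the tested loci.

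The gene gstk-2 (WBGene00017054) lies on the minus strand of chromosome IV at 7240445 to 7242270, with 3 exons over 1826 bp. The tables held 2 rows of this name over the same locus, which covered 96.2% of the gene. The order of the rows follows the strand of the genes for 99.1% of 14396 singly named loci, and by that order the first gstk-2 row belongs to the plus strand and the second to the minus strand, that of the annotated gene. Of 66 genes with such a pair of rows, the larger row was on the annotated strand in 37. Which row holds the transcript of gstk-2 was not tested, and both are given.

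In its first row gstk-2 was at 147, 193 and 201 FPKM in control and 141, 149 and 193 FPKM in prx-5-labelled libraries. The groups overlapped, with a difference of -0.16 ± 0.20 (SE), a 95% interval of -0.62 to 0.30 and an adjusted p of 0.666. In the second row the values were 4.08, 4.09 and 3.83 FPKM against 5.52, 5.41 and 6.53 FPKM. There every prx-5-labelled library lay above every control library, with a difference of 0.45 ± 0.18, an interval of 0.03 to 0.86 and an adjusted p of 0.202. The rows thus differed in level by more than an order of magnitude and in the sign of their difference, and neither was called. The end of gstk-2 overlaps elo-3, an elongase gene on the plus strand, by 44 bp, and elo-3 has a row of its own with 111 ± 14.4 and 121 ± 6.03 FPKM.

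The ratio of gstk-1 to the first row of gstk-2 was 0.361, 0.171 and 0.183 in control and 0.692, 0.475 and 0.333 in prx-5-labelled libraries. Control replicate 1 overlapped the prx-5-labelled range, and the exact p of the log2 difference of 1.09 was 0.2. Replicate 1 held the highest ratio of each group.

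The NADP-dependent isocitrate dehydrogenase idh-1 (WBGene00010317) makes NADPH and 2-oxoglutarate, and its mammalian relative IDH1 works both in the cytosol and in peroxisomes. It has 4 exons over 2030 bp on the minus strand of chromosome IV at 9439078 to 9441107, and its row covered the whole gene. Its level was 206, 221 and 240 FPKM in control and 282, 309 and 271 FPKM in prx-5-labelled libraries. It was the most abundant of the genes in every library, with coefficients of variation of 7.56% and 6.80%.

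The means of idh-1 were 222 ± 16.8 and 287 ± 19.5 FPKM (SD, n = 3), a log2 difference of 0.37 ± 0.15 (SE). The 95% interval of 0.02 to 0.72 excludes a rise as large as that of daao-1 or Y75B8A.4, and the adjusted p was 0.202. The authors' deposited table gave 0.23 with a q-value of 0.422. The gene overlaps F59B8.1, on the opposite strand, by 88 bp, whose own row was low at 1.54 ± 0.40 and 2.02 ± 0.88 FPKM.

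The mitochondrial NADP-dependent enzyme idh-2 was at 26.7, 28.3 and 27.8 FPKM in control and 28.5, 37.2 and 30.6 FPKM in prx-5-labelled libraries, a difference of 0.20 ± 0.15 (SE) with an adjusted p of 0.492. The ratio of idh-1 to idh-2 stayed within a narrow range, 7.71, 7.82 and 8.63 against 9.89, 8.31 and 8.86, with an exact p of 0.2. The NAD-dependent mitochondrial enzyme of the citric acid cycle is built from idha-1, idhb-1, idhg-1 and idhg-2. Their log2 differences were -0.09, 0.02, -0.14 and -0.51, and none was called, the smallest adjusted p being 0.126 for idhg-2.

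Other sources of NADPH gave no call either. Of 5 listed genes outside the peroxisome, 4 were tested, and none passed by limma, with 1 at an unadjusted p under 0.05. That gene was T25B9.9, which encodes 6-phosphogluconate dehydrogenase of the pentose phosphate pathway, at 0.40 ± 0.14 (SE) and an adjusted p of 0.153. The others were gspd-1, glucose-6-phosphate dehydrogenase, at 0.28, idh-2, and the malic enzyme gene men-1 at -0.08.

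Although mlcd-1 itself has no value here, the enzyme that makes the substrate of malonyl-CoA decarboxylase does. This is acetyl-CoA carboxylase, encoded by pod-2. Its level was 53.2, 47.6 and 49.3 FPKM in control and 104, 162 and 123 FPKM in prx-5-labelled libraries. The groups lay apart, and pod-2 rose by 1.33 ± 0.19 (SE) with an adjusted p of 0.0139.

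In all, 13 related enzymes were tested, most of them of mitochondria or cytosol, and 2 rose, ddo-1 and pod-2, while none fell. Their median log2 difference was 0.16, against 0.04 for all tested loci, of which 7.49% were called higher and 1.20% lower. The D-aspartate oxidase of mammals is a peroxisomal enzyme, so ddo-1 may not lie outside the compartment, and its place in the worm was not tested. The count was 1 without control replicate 1. It was 0 without control replicate 3 and also 0 without replicate 2 or replicate 3 of the prx-5-labelled group.

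The genes covered a wide range of levels. By mean FPKM the order was idh-1, gstk-2, gstk-1, Y75B8A.4 and daao-1 in both groups, taking the first row of gstk-2. In control, the library values of the last pair, Y75B8A.4 and daao-1, overlapped. In the prx-5-labelled libraries those of gstk-1 and Y75B8A.4 overlapped instead, and in replicate 2 Y75B8A.4 was the higher of the pair. With the first row of gstk-2 in the sum, idh-1 held between 44.7% and 49.3% of the summed FPKM of the 5 genes in every library. The share of Y75B8A.4 was 0.991% to 1.80% in control and 8.59% to 14.5% in prx-5-labelled libraries. That of the first gstk-2 row was 35.2% to 42.2% and 23.4% to 31.8%. By its second row, gstk-2 had the lowest mean of the 5 genes in both groups. With that row the sum would be smaller and the shares of the other genes larger. Shares with the second row were not computed, so the narrow range of idh-1 is given for the first row only.

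The other matrix enzymes give the setting for these values. Of 26 listed, 23 had a row and 22 were tested, 17 of which rose and none of which fell, with a median of 2.32 on the log2 scale. Over all tested loci, 7.49% were called higher and 1.20% lower. The list was chosen with earlier results of these data known. The gene of the matrix catalase, ctl-2, rose by 2.74 ± 0.25 (SE), the short-chain reductase dhrs-4 by 2.62 ± 0.16 and the 2-hydroxyacyl-CoA lyase gene hacl-1, which acts in alpha-oxidation, by 1.36 ± 0.19. The Lon protease at 3.30 lay above the median of these enzymes and daao-1 at 1.68 below it, while gstk-1, idh-1 and gstk-2 lay under the lowest called enzyme of the list. Without control replicate 3, 11 of the 22 were called.

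The 5 other tested matrix enzymes were not called. The alanine-glyoxylate aminotransferase gene agxt-1 differed by 0.11 ± 0.14 (SE), with an adjusted p of 0.694. The enoyl-CoA isomerase-like gene ech-4 differed by -0.01 ± 0.17, and the acyl-CoA oxidase genes acox-1.2 and acox-1.4 by -0.38 ± 0.33 and 0.43 ± 0.27. The phytanoyl-CoA hydroxylase gene phyh-1 differed by -0.72 ± 0.43. The matrix list thus held enzymes without a call, as the set of 5 genes did.

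**Figure D2:**
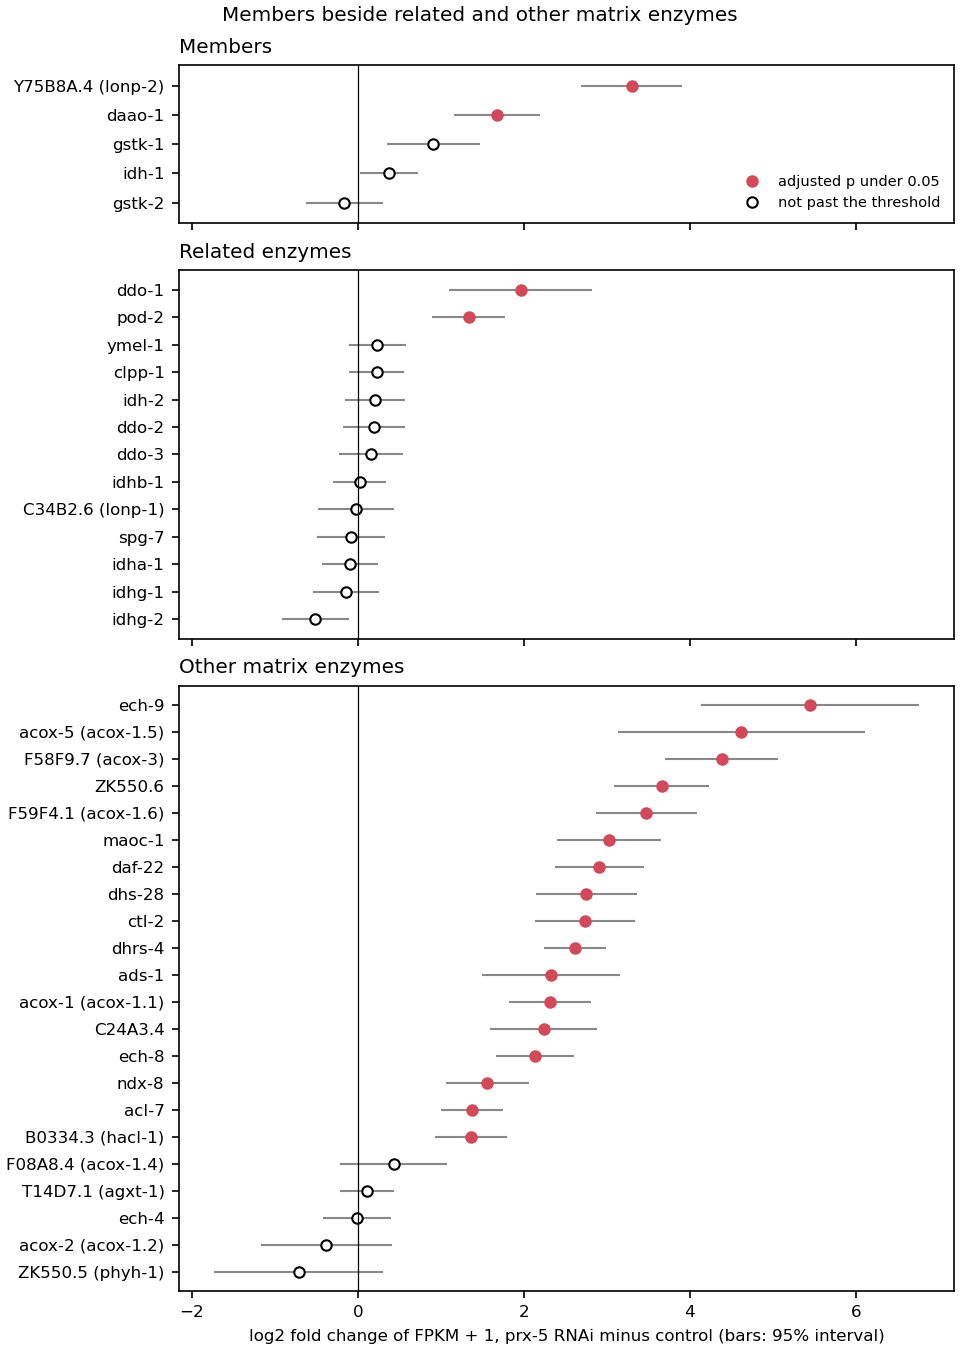
Log2 fold change of FPKM + 1, prx-5 RNAi minus control (horizontal axis), with 95% intervals for the 5 measured genes, 13 related enzymes and 22 other matrix enzymes, filled where the adjusted p is under 0.05. The 5 genes run from -0.16 for gstk-2 (first row) to 3.30 for Y75B8A.4, which lies among the called matrix enzymes, and 2 of the 13 related enzymes were called.

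Libraries of a group were not alike, for these genes as over all loci. In the prx-5-labelled group, Y75B8A.4 was highest in replicate 2 and lowest in replicate 1. All 17 called matrix enzymes were likewise highest in replicate 2, with 14 lowest in replicate 1 and 3 lowest in replicate 3. The 11 called markers of the intestine had much the same order, with 10 highest in replicate 2 and all 11 lowest in replicate 1. In contrast, daao-1 and gstk-1 were highest in replicate 1 and lowest in replicate 3. Within the prx-5-labelled libraries the order of daao-1 and gstk-1 therefore differed from that of Y75B8A.4, in 3 libraries and without a test.

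Markers of the intestine, the main site of fat storage and of many peroxisomal enzymes in the worm, moved with the groups. Of 12 tested markers, 11 were called higher, against 7.49% of all tested loci, and the median log2 difference of the markers was 1.55. Their summed level was 981 to 1473 FPKM in control and 3364 to 6242 FPKM in prx-5-labelled libraries. With control replicate 1 left out, 2 were called, and none was with control replicate 3 or with replicate 2 or 3 of the prx-5-labelled group left out. It was 6 with median-ratio scaling, 6 with the authors' constants and 7 with quantile normalization. Since RNA was taken from whole worms, more cells of a type and more RNA per cell cannot be told apart, and the part of the intestinal markers in the rise of Y75B8A.4 and daao-1 was not tested.

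Set against the median of the intestinal markers in the same library, the genes fell on both sides of it. Y75B8A.4 exceeded the intestinal median by 1.82, 1.84 and 1.48 on the log2 scale in prx-5 replicates 1, 2 and 3, after centring on control. The values of daao-1 were 0.75, -0.25 and -0.23, around 0, and its mean differed from control by 0.10 with an exact p of 1.0. The Lon gene thus stood above the intestinal median in every prx-5-labelled library, and daao-1 stood above it in 1 library and below it in 2. Standing above it was not particular to the Lon gene. In prx-5 replicates 1, 2 and 3 the median of the 22 other matrix enzymes was 1.99, 2.73 and 2.39. That of the intestinal markers was 1.09, 1.93 and 1.74. The differences of the other genes were -0.67 for gstk-1, -1.21 for idh-1 and -1.74 for the first row of gstk-2. The second row of gstk-2 was not compared in this way. The exact p was 0.1 for Y75B8A.4, idh-1 and gstk-2, the smallest the design allows, and 0.167 after adjustment over 5 comparisons.

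**Figure D3:**
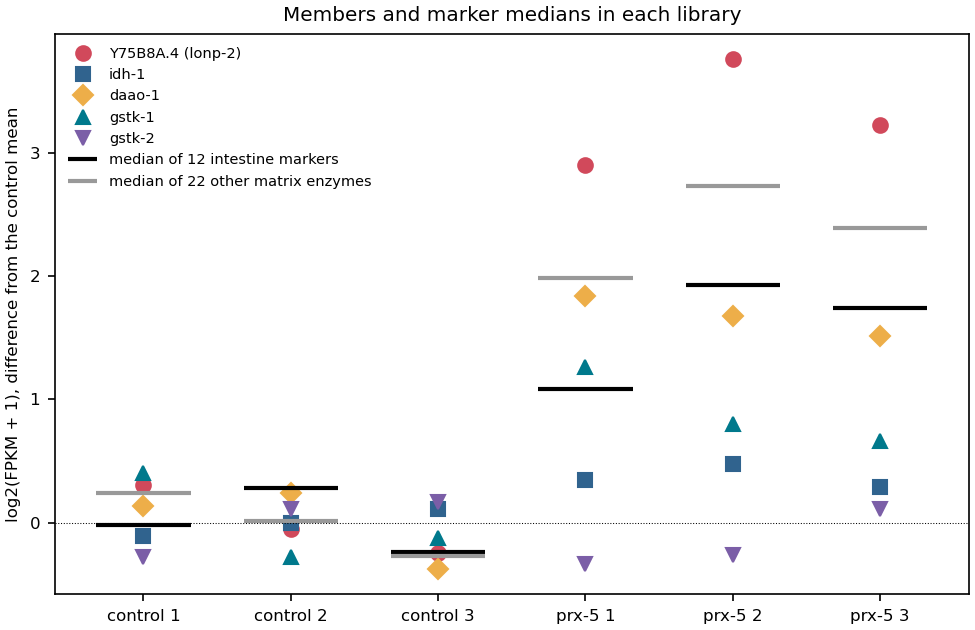
Difference of log2(FPKM + 1) from the control mean (vertical axis) in each of the 6 libraries for the 5 genes, with black lines for the median of 12 intestine markers and grey lines for the median of 22 other matrix enzymes. Y75B8A.4 lies above both lines in each prx-5-labelled library, daao-1 lies near the black line in replicates 2 and 3 and above it in replicate 1, and idh-1 and gstk-2 (first row) lie below it.

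Markers of other tissues differed in direction between the lists. All log2 differences were negative for germline, body muscle and sperm markers and positive for neuronal markers, while epidermal markers went both ways. None of 12 germline markers was called by limma, with 0 at an unadjusted p under 0.05 and a median of -0.28 (summed level 3077 to 4540 FPKM in control, 2566 to 3918 FPKM in prx-5-labelled libraries). None of 7 body muscle markers was called, with 6 at an unadjusted p under 0.05, a median of -0.71 and sums of 5430 to 5803 and 2701 to 4083 FPKM. None of 4 sperm markers was called, with 2 at an unadjusted p under 0.05, a median of -0.95 and sums of 25.2 to 81.2 and 11.3 to 23.2 FPKM, and spe-9 was listed at 0 in 2 libraries. Among 7 epidermal markers 1 fell, the cuticle collagen gene col-19 at -1.77 ± 0.19 (SE), and the sums of 1088 to 1340 and 577 to 757 FPKM were mostly those of col-19 in control. The median of this list was 0.45. The further collagen genes rol-6, dpy-13, sqt-3 and bli-1 differed by 2.28 ± 1.07, 1.86 ± 1.17, 1.67 ± 0.56 and 0.44 ± 0.89 without a call. Replicate 2 was the highest control library for each of them, with rol-6 at 2.99, 28.5 and 0.672 FPKM in control. Among 7 neuronal markers 1 rose, unc-64, with a median of 0.46 and sums of 293 to 361 and 353 to 409 FPKM. The part of these tissues in the values of the 5 genes was not tested.

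**Figure D4:**
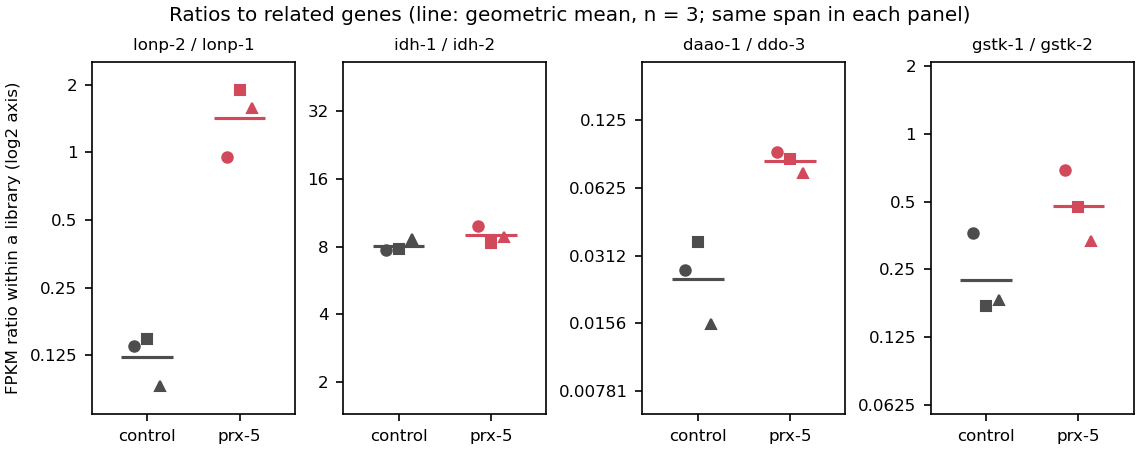
FPKM ratio of a gene to a related gene within each library (vertical axes, log2 scale with the same span in each panel), with symbols for replicates 1, 2 and 3 and lines for the geometric mean (n = 3). The ratio of lonp-2 (Y75B8A.4) to lonp-1 lies between 0.0912 and 0.148 in control and between 0.955 and 1.89 in prx-5-labelled libraries, and the ratio of idh-1 to idh-2 stays between 7.71 and 9.89.

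Named loci with the most similar profiles were ranked by the root mean square difference of log2(FPKM + 1), centred on control, over the 6 libraries. For Y75B8A.4 they were dhs-18 at 0.110, F59F4.1 (now acox-1.6, an acyl-CoA oxidase gene) at 0.155 and F58A6.1 at 0.189. For daao-1 they were T23F11.6 at 0.135, W05H9.1 (now lro-1) at 0.152 and asm-2 at 0.157. The first of these, dhs-18, went from 16.3 to 181 FPKM, so the locus nearest in profile to the Lon protease was more abundant than it in both groups.

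For gstk-1 the nearest loci were F48D6.4 at 0.0729, fbxa-33 at 0.0966 and F35E12.5 (now irg-5) at 0.0982. For idh-1 they were fis-2, lst-2 and rhi-1, at 0.0392 to 0.0435, and for the first row of gstk-2 lgc-4, mpst-7 and crh-1, at 0.0528 to 0.0698. None of these 9 loci was called.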

How the data were processed

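RNA-seq of 6 libraries (2 groups of 3) was analysed from 7 deposited tables of 15796 loci. Values are FPKM of each library and of each group, per the file headers. For each locus the authors' comparison table adds a log2 fold change, a score from the authors' test, its p-value and its q-value. CASAVA, Bowtie, Cufflinks and Cuffdiff are named per the submitters' processing notes. Versions, genome build and annotation are not given in the sources used here.

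Labels were the same in all tables for 14883 loci and differed for 913. A further 97, whose group value could not be recovered from the libraries within 2% after 1 constant per library, were left out, which left 14786. A total of 33 values with status FAIL or HIDATA were set to missing.

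FPKM were taken to log2 with a pseudocount of 1, which understates changes of low genes. The filter was a mean over the libraries of 1 FPKM or more, which 13347 loci passed. The test was that of limma 3.58.1, run under R 4.3.3 (empirical Bayes with a variance trend, Benjamini-Hochberg adjustment over all tested loci, threshold 0.05), and the fit was tested on simulated data. Tables were joined in Python 3.11.15 with pandas 2.3.3. Ratios and differences from markers were compared by exact permutation tests, two-sided. Gene models and current symbols came from the WBcel235 annotation. Where a gene had several rows, the one with the largest mean stood for it in counts.

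Named genes were all members, both RNAi targets, genes of the lists with a row, and for each member the 3 loci nearest in profile. The members and lists were chosen with earlier results of these data known. Alternatives were other pseudocounts, filters, scalings, a variance without a trend, a replicate block and leaving out each library. Leaving out libraries from the ratios was chosen after seeing the data.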

Additional observations from a re-analysis of the deposited data

How the results depend on the processing

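No measured member changed sign under the 9 alternatives or when a library was left out. Y75B8A.4 was called under each of them, with log2 differences of 3.17 to 3.48 under the 9 alternatives and 3.07 to 3.49 with a library left out. daao-1 was called under the 9 alternatives (1.36 to 1.87) and in 3 of 6 leave-outs (1.49 to 1.80). gstk-1 passed the threshold under quantile normalization (0.91) and with a replicate block (0.91). idh-1 and gstk-2 were called under none. Relative to the main scaling, the median of all loci shifted by -0.11 with median-ratio scaling, -0.13 with the authors' constants and -0.25 with quantile normalization, which gave 698, 714 and 770 calls against 1160, and 6, 6 and 7 called intestine markers against 11. With 1 library left out, calls ran from 78 to 1834 loci, 1 to 2 members, 11 to 17 other matrix enzymes, 0 to 3 related enzymes and 0 to 11 intestine markers. The cause was not tested.

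The replicate block gave 1253 calls. Deviations of same-numbered libraries correlated at 0.290, 0.232 and -0.117, and not every library correlated best with its own number, so the numbers were not taken to pair the samples. With the block changing gstk-1 alone among the members, it changed no other member's call.

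Limits lie in 3 libraries per group, unknown read numbers, values near the pseudocount, and locus rows that can cover part of a gene or lie on both strands.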

Other observations

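The neighbour of the Lon protease gene moved in the same direction. Y75B8A.3 (now cest-12) lies 232 bp upstream on the opposite strand, and it was chosen after its values were seen. Its level was 2.75, 5.15 and 2.83 FPKM in control and 24.6, 32.0 and 24.3 FPKM in the prx-5-labelled libraries. The groups did not overlap, and the gene rose by 2.64 ± 0.25 (SE) on the log2 scale with an adjusted p of 0.00549. The neighbour on the other side, lron-12, lies 1096 bp away and differed by 0.04 ± 0.22 with an adjusted p of 0.942. Among 494 pairs of divergent protein-coding neighbours with starts at most 500 bp apart, 5 had both genes called higher (1.01%) and 24 had 1 called higher. Counted over the higher genes in these pairs, 29.4% had a partner that was also higher. The pair of Y75B8A.3 and Y75B8A.4 was not left out of these counts. Whether reads or transcription are shared by the Y75B8A.3 and Y75B8A.4 loci was not tested.

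ZK1320.2, on the opposite strand 162 bp from the end of gstk-1, rose from 124 ± 25.7 to 358 ± 88.1 FPKM (SD, n = 3), a log2 difference of 1.51 ± 0.25 with an adjusted p of 0.0180. On the other side of gstk-1, ZK1307.1 differed by 0.70 ± 0.20 with an adjusted p of 0.0819. Around daao-1, smf-3 differed by 0.78 ± 0.21 with an adjusted p of 0.0657 and Y69A2AR.28 by -0.17 ± 0.22 with 0.691. pan-1 and idhg-1, which flank mlcd-1, differed by 0.49 ± 0.30 and -0.14 ± 0.17 with adjusted p-values of 0.390 and 0.664. These neighbours were chosen by position after values were seen.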
